A study of Drosophila melanogaster with 9 samples.

Results

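The transcripts described here encode the machinery of mitosis and cytokinesis: mitotic cyclins, the chromosomal passenger complex, condensin, spindle motors, kinetochore and checkpoint proteins, the anaphase switch and the cytokinetic ring. The list holds 36 gene names, matched by symbol to the platform annotation. Of these, 26 had a probe set of their own and are described, out of 11573 named genes with a measured probe set. The other 10 (aurA, polo, Cdk1, CycA, stg, pav, sti, BubR1, sqh and pnut) were not analysed here. Each gene is represented by its probe set with the highest mean over the 9 arrays.

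RNA came from Drosophila melanogaster S2 cells, a hemocyte-like line of embryonic origin, and was hybridized to single-channel Affymetrix Drosophila Genome 2.0 arrays. There were 3 groups of 3 arrays: cells given double-stranded RNA (dsRNA) against NELF-B and NELF-E for 72 h, cells given dsRNA against bacterial beta-galactosidase (LacZ) for 72 h as a mock treatment, and untreated cells. All groups shared the same line and medium. The labels do not state that replicates were grown separately. The p-values therefore rest on the spread between these arrays, which could be technical only.

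NELF, the negative elongation factor, holds RNA polymerase II just downstream of many promoters until the kinase P-TEFb releases it. Mitosis is driven by Cdk1 with its cyclins. Condensin compacts chromosomes, kinetochores attach them to the spindle, and the checkpoint holds anaphase until all are attached. Securin is then destroyed, separase opens cohesin, and a contractile ring at the spindle midzone divides the cell. In cycling cells many of these transcripts peak in G2 and M. On bulk arrays, fewer cells in that phase and less RNA per cell cannot be told apart.

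The targeted genes were lower in the NELF dsRNA arrays. NELF-B had 4.76, 4.83 and 4.54 (log2 intensity, arrays 1, 2 and 3) after NELF dsRNA, against 7.41, 7.47 and 7.63 after LacZ dsRNA and 7.41, 7.17 and 7.16 in untreated cells. Nelf-E had 2.52, 3.65 and 3.82 after NELF dsRNA, against 7.98, 7.81 and 7.48 after LacZ dsRNA and 7.83, 7.93 and 7.85 in untreated cells. Both genes were low on every NELF dsRNA array, with no overlap with either control. Of 12 hemocyte markers, 6 lay above the detection limit (3.77, the 95th percentile of control probe sets) on all 9 arrays, among them srp, Pxn, crq and ush. No marker of muscle (4 with a probe set) or fat body (5) did, and 1 of 4 neuron markers (elav) and 2 of 6 germline markers (aub and AGO3) did. The summed hemocyte marker level (log2 of the summed intensities) ran from 11.45 to 11.58 after NELF dsRNA, 11.37 to 11.54 after LacZ dsRNA and 11.35 to 11.36 in untreated cells. Among these markers, Pxn averaged 8.47 after NELF dsRNA, against 7.59 after LacZ dsRNA and 8.18 in untreated cells, and passed as higher against LacZ dsRNA only. The marker eater averaged 3.90 after NELF dsRNA, against 6.56 after LacZ dsRNA and 6.81 in untreated cells, and passed as lower against both. The marker srp averaged 10.09 after NELF dsRNA, against 10.02 after LacZ dsRNA and 9.74 in untreated cells, and passed as higher against untreated cells only. The means of NimC1, Sr-CI and gcm lay below the limit in all groups. Whether these markers bear on the values below was not tested.

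All 26 mitosis and cytokinesis genes were measured on all 9 arrays and lay above the detection limit throughout, the lowest single value being 5.44 for thr. After NELF dsRNA most of them differed little from either control. Against LacZ dsRNA, 3 of 26 rose and none fell: glu, a condensin subunit, scra, which encodes anillin, and aurB, the Aurora B kinase gene, by 0.30 to 0.45 on the log2 scale. These 3 are 11.5% of the 26, beside 5.25% of all genes tested, and none of them passed when NELF dsRNA array 1, NELF dsRNA array 3 or LacZ dsRNA array 2 was left out alone. Without the variance trend none passed either, and with replicate number as a block aurB alone did. Against untreated cells, 2 rose and none fell: scra and pim, the securin gene. These 2 are 7.69% of the 26, beside 7.09% of all genes tested. For pim the LacZ dsRNA arrays were also above the untreated ones, and NELF dsRNA minus LacZ dsRNA was 0.06. LacZ dsRNA against untreated cells gave no call among the 26. No gene of the 26 differed by 1.5-fold or more in any comparison.

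**Figure D1:**
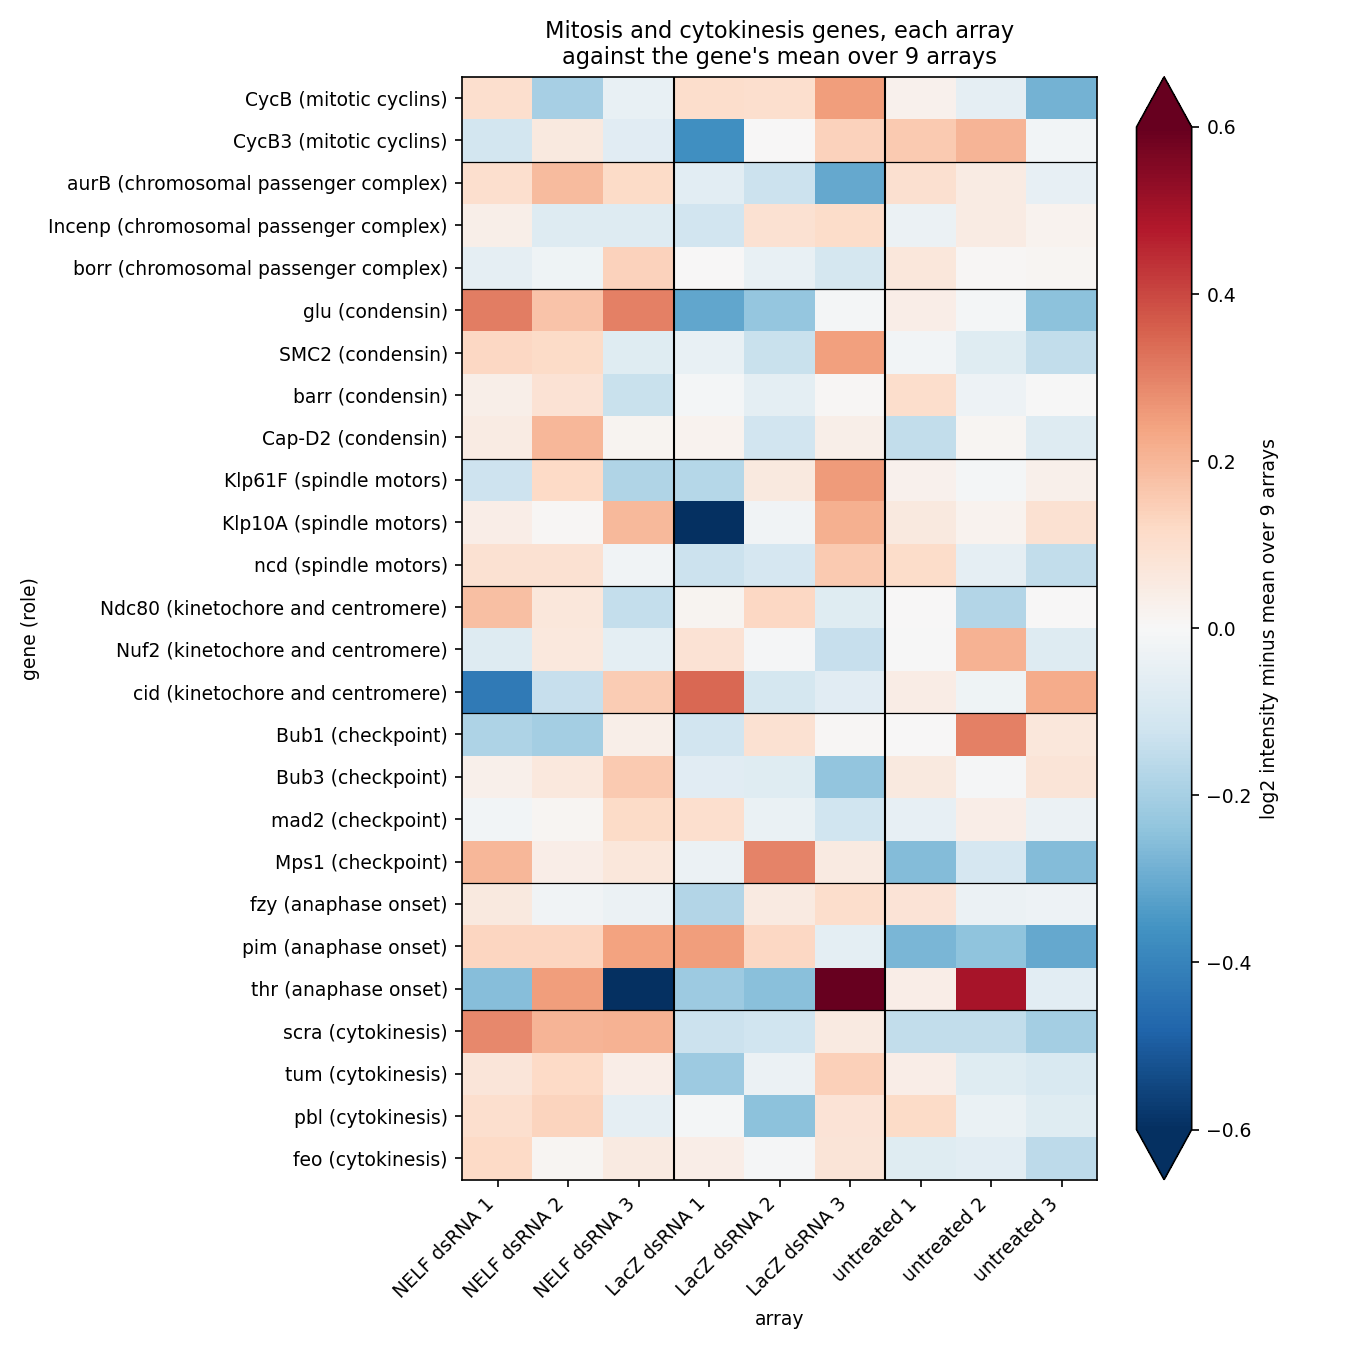
Log2 intensity of each of the 26 genes (rows, ordered by role) on each of the 9 arrays (columns, NELF dsRNA at the left, then LacZ dsRNA and untreated), minus that gene's mean over the 9 arrays. The rows of glu and scra are above their means on all 3 NELF dsRNA arrays, as are others, among them aurB, Bub3 and tum. The row of pim is below its mean on all 3 untreated arrays, as are those of scra, feo and Mps1. The row of thr varies most within groups.

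Each difference below is the first-named group minus the other on the log2 scale, tested with limma over all probe sets on all 9 arrays, with a Benjamini-Hochberg threshold of 0.05. In NELF dsRNA against LacZ dsRNA, the 5.25% of genes that passed were 474 of 9036 tested (1.93% higher and 3.32% lower). Among the 4588 genes whose mean level lay within the range of these 26, 7.87% passed. In NELF dsRNA against untreated cells, 2 of 26 is 7.69%, beside 7.09% of 9029 genes (2.78% higher and 4.31% lower), and 10.4% within the same level range. In LacZ dsRNA against untreated cells the 0 of 26 stands beside 0.0772% of 9063 genes (0.0662% higher and 0.011% lower), and 0.131% within the level range. At an unadjusted limma p under 0.05 the 26 gave 5 genes (glu, scra, aurB and Bub3 higher, CycB lower) against LacZ dsRNA, 4 (glu, scra, pim and feo, all higher) against untreated cells, and 4 (pim and CycB higher, aurB and Bub3 lower) in LacZ dsRNA against untreated. The shares of all genes at that level were 17.0%, 19.5% and 11.1% in the same comparisons.

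The median difference of the 26 was 0.03 in NELF dsRNA against LacZ dsRNA, beside a median of 0.00 for all genes tested. Of the 26 values 18 were above 0, beside 50.7% of all genes. In NELF dsRNA against untreated cells the median was 0.05, beside -0.01 for all genes, with 16 values above 0 (49.1% of all genes). In LacZ dsRNA against untreated cells the median was -0.01, beside -0.02, with 12 above 0 (47.1% of all genes). Each of these medians changed on leaving out some of the arrays. The first ran from 0.023 without LacZ dsRNA array 1 to 0.043 without LacZ dsRNA array 2, and stayed at 0.035 without any 1 untreated array. The second became 0.083, 0.035 and 0.033 without untreated array 1, 2 and 3. The last ran from -0.054 to 0.048 on leaving out 1 LacZ dsRNA or untreated array. Sizes without regard to sign were small as well: the median absolute difference of the 26 was 0.09 against LacZ dsRNA, beside 0.12 for genes of the same level range. Their spread was ordinary for that range, with a median pooled within-group SD of 0.12 for the 26 and 0.12 for the 4588 genes. It ran from 0.049 for feo to 0.47 for thr.

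The 95% intervals give the precision of these arrays. Like the p-values they rest on the spread between arrays. If the replicates were technical only, the intervals leave out variation between cultures. The 95% interval of the difference lay inside 1.5-fold in both directions for 24 of 26 genes in NELF dsRNA against LacZ dsRNA, for 22 against untreated cells and for 24 in LacZ dsRNA against untreated. The exceptions were glu and thr in the first of these, Mps1, cid, pim and thr in the second, and Mps1 and thr in the last.

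Among mitotic cyclins, which activate Cdk1, neither of the measured members passed in any comparison. CycB, the B-type cyclin of the mitotic kinase, had 10.16, 9.86 and 10.01 after NELF dsRNA, against 10.16, 10.15 and 10.31 after LacZ dsRNA and 10.08, 10.00 and 9.77 in untreated cells. Its LacZ dsRNA arrays all lay above its untreated arrays, and the NELF dsRNA arrays overlapped both. The difference was -0.20 (SE 0.09, limma adjusted p = 0.32) for NELF dsRNA minus LacZ dsRNA and 0.26 (SE 0.09, limma adjusted p = 0.33) for LacZ dsRNA minus untreated, and neither passed. CycB3, a cyclin that acts during anaphase, had 7.25, 7.42 and 7.29 after NELF dsRNA, against 6.99, 7.36 and 7.50 after LacZ dsRNA and 7.52, 7.56 and 7.35 in untreated cells. The groups overlapped, with a low value on LacZ dsRNA array 1.

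The chromosomal passenger complex, which corrects attachments and marks the cleavage plane, has 3 measured members, of which 1, the kinase, passed in NELF dsRNA against LacZ dsRNA. The kinase gene aurB had 9.03, 9.12 and 9.04 after NELF dsRNA, against 8.86, 8.80 and 8.62 after LacZ dsRNA and 9.02, 8.98 and 8.88 in untreated cells. All NELF dsRNA arrays lay above all LacZ dsRNA arrays, and the LacZ dsRNA arrays lay below all untreated arrays. NELF dsRNA exceeded LacZ dsRNA by 0.30 (SE 0.08, 1.23-fold, limma adjusted p = 0.043). It exceeded untreated cells by 0.10 (SE 0.08, limma adjusted p = 0.58), which did not pass, and LacZ dsRNA minus untreated was -0.20 (SE 0.08, limma adjusted p = 0.40). The call against LacZ dsRNA was lost on leaving out any single array other than LacZ dsRNA array 1, with adjusted p between 0.056 and 0.16. It was also lost without the variance trend (limma adjusted p = 0.21), with only the 2 groups compared (0.083) and with means over probe sets (0.056).

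The scaffold gene Incenp had 8.89, 8.78 and 8.78 after NELF dsRNA, against 8.74, 8.94 and 8.96 after LacZ dsRNA and 8.82, 8.90 and 8.87 in untreated cells. The borealin gene borr had 9.58, 9.60 and 9.76 after NELF dsRNA, against 9.63, 9.59 and 9.52 after LacZ dsRNA and 9.70, 9.63 and 9.64 in untreated cells. The NELF dsRNA arrays of both genes overlapped each control, and neither gene passed. The interval of the NELF dsRNA minus LacZ dsRNA difference ran from -0.24 to 0.10 for Incenp and from -0.08 to 0.22 for borr. Whether aurB differed from these partners was not tested.

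**Figure D2:**
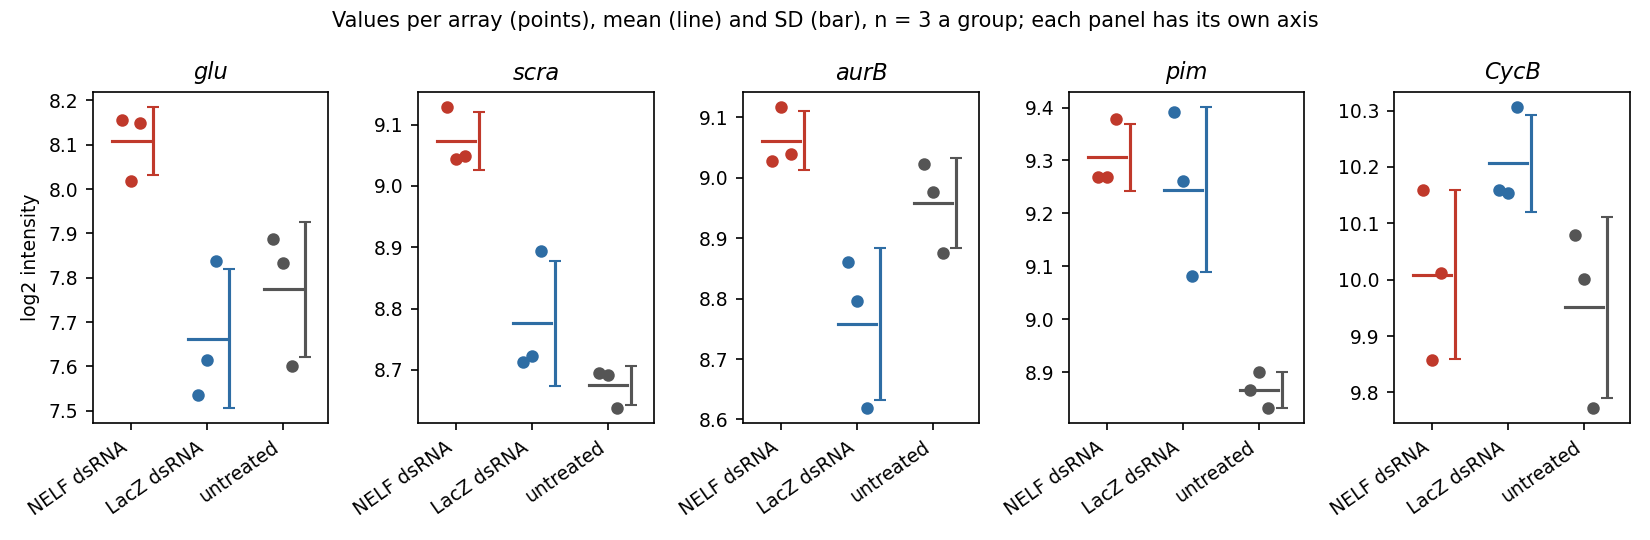
Log2 intensity (vertical axis, a separate range in each panel) of glu, scra, aurB, pim and CycB on each array, with the group mean as a line and the SD as a bar (n = 3), for NELF dsRNA, LacZ dsRNA and untreated cells from left to right. The NELF dsRNA points of glu and scra lie above all other points, while for pim the untreated points lie below all points of both dsRNA groups.

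Condensin compacts mitotic chromosomes with a pair of SMC ATPases and non-SMC subunits, and 4 of its genes were measured. The SMC4 subunit gene glu had 8.16, 8.02 and 8.15 after NELF dsRNA, against 7.53, 7.61 and 7.84 after LacZ dsRNA and 7.89, 7.83 and 7.60 in untreated cells. Every NELF dsRNA array lay above every array of both controls, and the controls overlapped each other. NELF dsRNA exceeded LacZ dsRNA by 0.45 (SE 0.11, 95% interval 0.22 to 0.68, 1.36-fold, limma adjusted p = 0.027). Against untreated cells the difference was 0.33 (SE 0.11, 1.26-fold, limma adjusted p = 0.093) and did not pass. The call was lost on leaving out NELF dsRNA array 1 (adjusted p = 0.094) or 3 (0.089), or LacZ dsRNA array 1 (0.068) or 2 (0.099). It was also lost in the limma fits with replicate number as a block (adjusted p = 0.060) and without the variance trend (0.16).

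The partner ATPase gene SMC2 had 8.12, 8.11 and 7.92 after NELF dsRNA, against 7.95, 7.86 and 8.24 after LacZ dsRNA and 7.98, 7.92 and 7.85 in untreated cells. These groups overlapped, and NELF dsRNA minus LacZ dsRNA was 0.03 (95% interval -0.20 to 0.26). The kleisin subunit gene barr had 8.04, 8.09 and 7.87 after NELF dsRNA, against 7.99, 7.94 and 8.01 after LacZ dsRNA and 8.11, 7.97 and 8.00 in untreated cells. The HEAT-repeat subunit gene Cap-D2 had 7.11, 7.26 and 7.08 after NELF dsRNA, against 7.08, 6.95 and 7.10 after LacZ dsRNA and 6.91, 7.07 and 6.98 in untreated cells. Both overlapped LacZ dsRNA, with differences of 0.02 (95% interval -0.17 to 0.21) for barr and 0.11 (-0.14 to 0.35) for Cap-D2. Of the 4 condensin genes 1 passed in NELF dsRNA against LacZ dsRNA and none in the other comparisons. The probe set of barr, like that of Klp10A, is of the s_at type, which can match transcripts of more than 1 gene, though the annotation gives it 1.

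Spindle motors gave no call in any comparison. The kinesin-5 gene Klp61F, which pushes spindle poles apart, averaged 9.40 ± 0.16 after NELF dsRNA, against 9.51 ± 0.21 after LacZ dsRNA and 9.48 ± 0.02 in untreated cells (SD, n = 3 each). The minus-end motor gene ncd averaged 10.24 ± 0.07 after NELF dsRNA, against 10.16 ± 0.16 after LacZ dsRNA and 10.15 ± 0.13 in untreated cells. Klp10A, which encodes a microtubule-depolymerizing kinesin, had 7.29, 7.26 and 7.44 after NELF dsRNA, against 6.64, 7.23 and 7.46 after LacZ dsRNA and 7.31, 7.27 and 7.34 in untreated cells. A single low value, on LacZ dsRNA array 1, sets its LacZ dsRNA mean apart from the rest, and its difference of 0.22 (SE 0.16) against LacZ dsRNA did not pass.

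At the kinetochore, Ndc80 and Nuf2 encode partners in the complex that grips microtubules, and cid encodes the centromeric histone. Ndc80 averaged 7.25 ± 0.16 after NELF dsRNA, against 7.24 ± 0.10 after LacZ dsRNA and 7.16 ± 0.10 in untreated cells (SD, n = 3 each). Nuf2 averaged 8.21 ± 0.08 after NELF dsRNA, against 8.22 ± 0.11 after LacZ dsRNA and 8.28 ± 0.15 in untreated cells. The intervals for NELF dsRNA minus LacZ dsRNA were -0.24 to 0.26 for Ndc80 and -0.21 to 0.20 for Nuf2. The histone gene cid had 6.01, 6.30 and 6.58 after NELF dsRNA, against 6.78, 6.33 and 6.37 after LacZ dsRNA and 6.48, 6.41 and 6.66 in untreated cells. Its groups overlapped, and its differences of -0.19 and -0.22 (SE 0.18 each) from LacZ dsRNA and untreated cells did not pass.

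The spindle checkpoint delays anaphase while kinetochores are unattached. Its gene Bub3, which encodes a kinetochore-binding adaptor, had 10.35, 10.39 and 10.48 after NELF dsRNA, against 10.25, 10.25 and 10.09 after LacZ dsRNA and 10.38, 10.31 and 10.40 in untreated cells. The LacZ dsRNA arrays were the low ones, below all arrays of both other groups. NELF dsRNA minus LacZ dsRNA was 0.21 (SE 0.07, limma adjusted p = 0.099), and LacZ dsRNA minus untreated was -0.17 (SE 0.07, limma adjusted p = 0.39), so neither passed. The checkpoint kinase gene Mps1 had 6.24, 6.08 and 6.11 after NELF dsRNA, against 6.00, 6.34 and 6.10 after LacZ dsRNA and 5.78, 5.94 and 5.78 in untreated cells. Both dsRNA groups lay above all untreated arrays, by 0.31 (SE 0.16, limma adjusted p = 0.37) for NELF dsRNA and 0.31 (SE 0.16, limma adjusted p = 0.54) for LacZ dsRNA, without passing. 

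The other 2 checkpoint genes overlapped between all groups. Bub1, which encodes a kinetochore kinase, had 6.76, 6.74 and 6.98 after NELF dsRNA, against 6.83, 7.04 and 6.95 after LacZ dsRNA and 6.95, 7.25 and 7.01 in untreated cells. The gene mad2, whose product inhibits Cdc20, had 10.16, 10.19 and 10.29 after NELF dsRNA, against 10.28, 10.14 and 10.06 after LacZ dsRNA and 10.13, 10.22 and 10.15 in untreated cells. Bub1 had its 2 lowest values on NELF dsRNA arrays, with differences of -0.11 from LacZ dsRNA and -0.24 (95% interval -0.52 to 0.03) from untreated cells, and the intervals of both genes included 0.

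Anaphase begins when fzy, the Drosophila Cdc20, directs the anaphase-promoting complex to securin, encoded by pim, which then frees the separase complex that includes thr. The securin gene pim had 9.27, 9.27 and 9.38 after NELF dsRNA, against 9.39, 9.26 and 9.08 after LacZ dsRNA and 8.87, 8.90 and 8.83 in untreated cells. The dsRNA groups overlapped each other, and all 6 of their arrays lay above all 3 untreated arrays. NELF dsRNA exceeded untreated cells by 0.44 (SE 0.08, 95% interval 0.27 to 0.61, 1.36-fold, limma adjusted p = 0.0033). LacZ dsRNA exceeded untreated cells by 0.38 (SE 0.08, 95% interval 0.21 to 0.55), which did not pass over all probe sets (limma adjusted p = 0.11). The difference between the dsRNA groups was 0.06 (SE 0.08, 95% interval -0.11 to 0.23). The call against untreated cells held on leaving out each array in turn and was lost without the variance trend (limma adjusted p = 0.072).

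Neither thr, which encodes a partner of the separase enzyme, nor fzy gave a call. The gene thr had 5.93, 6.44 and 5.44 after NELF dsRNA, against 5.97, 5.94 and 6.93 after LacZ dsRNA and 6.23, 6.68 and 6.12 in untreated cells. Its values scattered widely in every group, and its interval for NELF dsRNA minus LacZ dsRNA, -0.95 to 0.27, was the widest of the 26. The gene fzy averaged 8.92 ± 0.05 after NELF dsRNA, against 8.92 ± 0.15 after LacZ dsRNA and 8.93 ± 0.07 in untreated cells (SD, n = 3 each). Besides the probe set used, fzy had 2 dimmer ones with empty cells. Every other gene described had a single named probe set.

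Cytokinesis genes include a midzone bundler (feo), regulators of ring assembly at the cleavage plane (pbl and tum, the second a centralspindlin subunit), and anillin (scra), which ties actin, myosin and septins into the ring. The anillin gene scra had 9.13, 9.04 and 9.05 after NELF dsRNA, against 8.71, 8.72 and 8.89 after LacZ dsRNA and 8.69, 8.69 and 8.64 in untreated cells. The NELF dsRNA arrays were above all 6 control arrays, and the LacZ dsRNA arrays were above the untreated ones by a smaller step. NELF dsRNA exceeded LacZ dsRNA by 0.30 (SE 0.07, 1.23-fold, limma adjusted p = 0.033) and untreated cells by 0.40 (SE 0.07, 1.32-fold, limma adjusted p = 0.0036). LacZ dsRNA minus untreated was 0.10 (SE 0.07, limma adjusted p = 0.68). Against LacZ dsRNA the call was lost without any 1 of the NELF dsRNA arrays, LacZ dsRNA array 1 or 2, or untreated array 1 or 3, with adjusted p between 0.051 and 0.12. It was also lost with quantile normalization (adjusted p = 0.054) and in the limma fit with replicate number as a block (adjusted p = 0.064). The same held for limma with only the 2 groups compared (adjusted p = 0.076) and without the variance trend (0.16). Against untreated cells the call held on leaving out each array and was lost without the variance trend (limma adjusted p = 0.053).

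The regulators around anillin did not pass. The centralspindlin gene tum had 9.22, 9.26 and 9.19 after NELF dsRNA, against 8.93, 9.11 and 9.28 after LacZ dsRNA and 9.18, 9.07 and 9.05 in untreated cells. Its NELF dsRNA arrays lay just above all untreated ones and overlapped the LacZ dsRNA ones. The midzone gene feo had 8.99, 8.89 and 8.93 after NELF dsRNA, against 8.91, 8.87 and 8.95 after LacZ dsRNA and 8.80, 8.81 and 8.72 in untreated cells. All of its dsRNA arrays lay above its untreated ones, by 0.16 (SE 0.07, limma adjusted p = 0.25) for NELF dsRNA and 0.13 (SE 0.07, limma adjusted p = 0.54) for LacZ dsRNA. The regulator gene pbl had a difference of 0.12 (95% interval -0.10 to 0.34) against LacZ dsRNA.

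**Figure D3:**
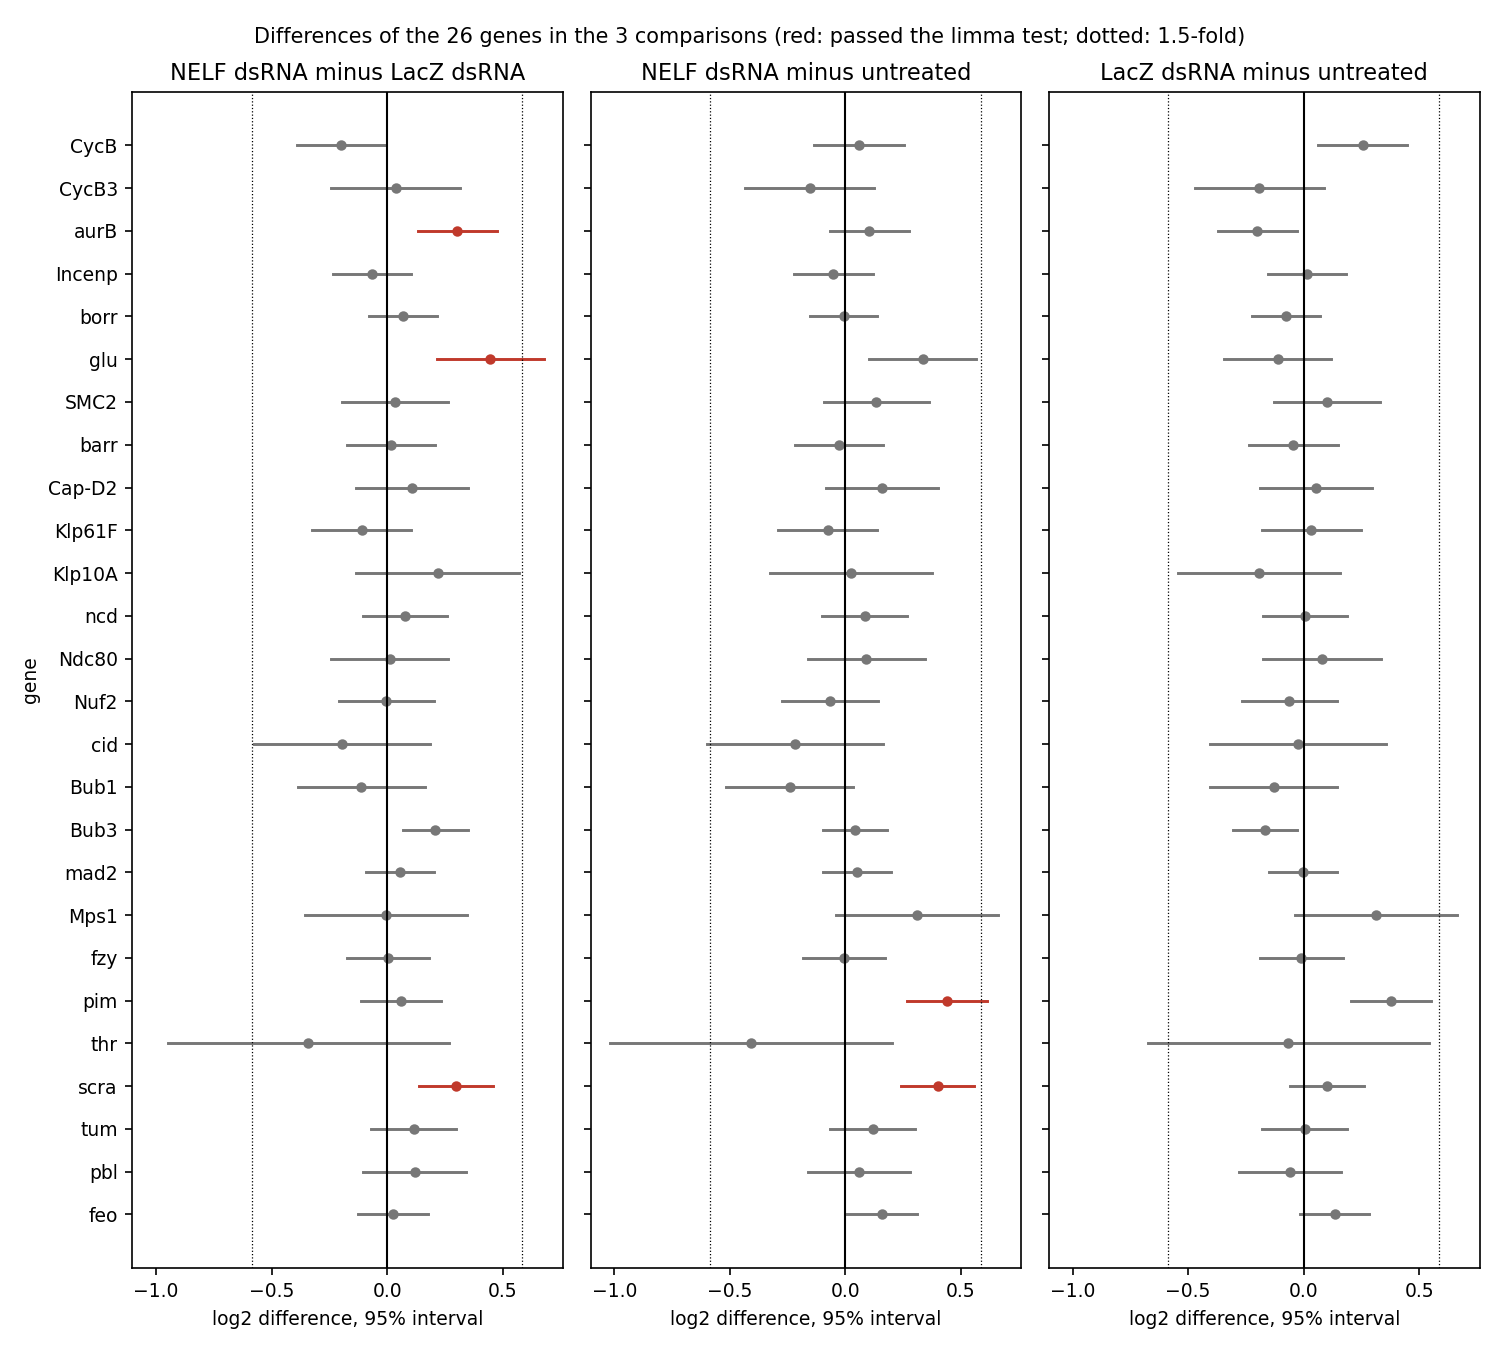
Log2 difference (point) with its 95% limma interval (line) for each of the 26 genes, in NELF dsRNA minus LacZ dsRNA, NELF dsRNA minus untreated, and LacZ dsRNA minus untreated, with dotted lines at 1.5-fold. Red marks the genes that passed the test: glu, scra and aurB in the left panel, scra and pim in the middle one and none at the right.

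Complete separation of the arrays was more frequent than a call, among these genes as over all genes. In NELF dsRNA against LacZ dsRNA, 4 of 26 genes were higher on all arrays and 0 lower, 15.4% in all, beside 23.5% of all genes (11.3% higher and 12.3% lower). These were glu, scra, aurB and Bub3. In NELF dsRNA against untreated cells 8 were higher and 0 lower, 30.8%, beside 29.6% (13.9% higher and 15.7% lower). These were scra, pim, glu, aurB, Cap-D2, tum, feo and Mps1. In LacZ dsRNA against untreated cells 5 were higher and 3 lower, 30.8%, beside 19.8% (9.44% higher and 10.4% lower). The higher ones were pim, CycB, Mps1, feo and scra, and the lower ones aurB, Bub3 and borr. These comparisons share groups, so their counts are not independent.

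Within groups, the 26 genes did not sit equally on all arrays. The median of their values minus each gene's mean over 9 arrays was 0.05, 0.07 and 0.03 on NELF dsRNA arrays 1, 2 and 3, against -0.05, -0.04 and 0.05 on the LacZ dsRNA arrays and 0.03, -0.02 and -0.06 on the untreated arrays. For genes of the same level range it stayed between -0.002 and 0.013 on all 9. A median over 26 genes varies more by sampling than one over the 4588 genes of that range. Whether the 26 shifted together was not tested. LacZ dsRNA array 3 held the highest LacZ dsRNA value for 16 of the 26 genes, and array 1 the lowest for 11. Untreated array 3 held the lowest untreated value for 13 genes and untreated array 1 the highest for 12. NELF dsRNA array 3 held the lowest value of its group for 11. The same counts over all genes were not taken. The pooled SD of these array medians within groups was 0.044. This is a spread of single arrays. It is not the error of the median difference of 0.035 between NELF dsRNA and LacZ dsRNA, which comes from group means of each gene.

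**Figure D4:**
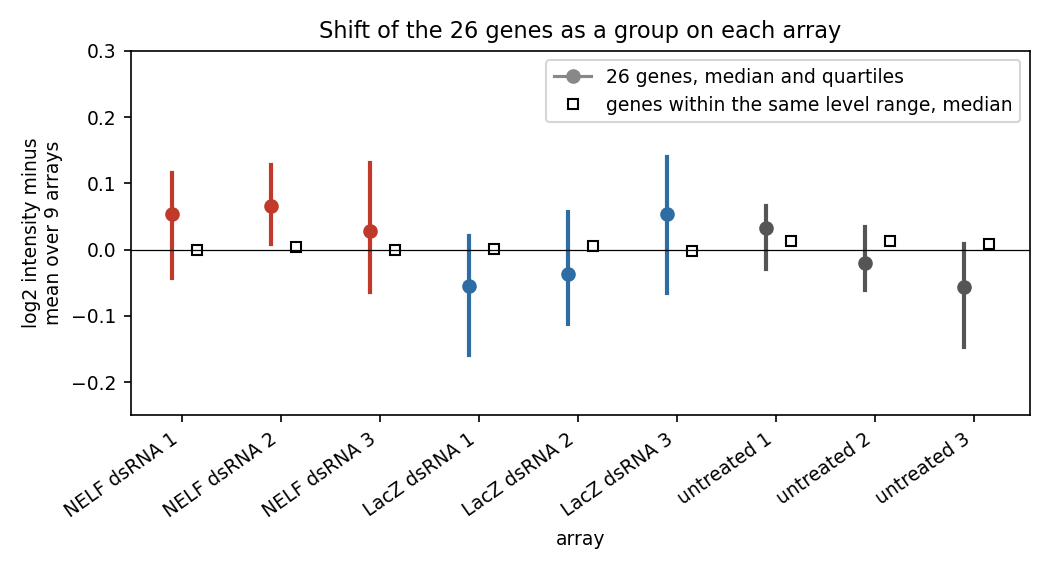
Median over the 26 genes (filled points, with quartiles as bars) of the log2 intensity minus each gene's mean over 9 arrays, for each array, with the same median for 4588 genes of the same level range (open squares). The medians of the 26 genes run from -0.06 to 0.07. Those of LacZ dsRNA array 3 and untreated array 1 lie within the range of the NELF dsRNA arrays. A median over 26 genes varies more by sampling than one over 4588.

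Other genes of cell division, in 7 lists, were counted in the same fit. Of 106 tested, 1 rose and 1 fell in NELF dsRNA against LacZ dsRNA, 1.89% beside the 5.25% of all genes. The riser was msd5, which encodes a subunit of the augmin complex that nucleates spindle microtubules, with means of 9.17 after NELF dsRNA and 8.80 after LacZ dsRNA (0.36, SE 0.09, limma adjusted p = 0.031). The one that fell was CycE, the S-phase cyclin gene, with 8.28 after NELF dsRNA and 8.59 after LacZ dsRNA (-0.31, SE 0.08, limma adjusted p = 0.047). No call came from 13 further kinetochore and checkpoint genes, 12 of the anaphase-promoting complex, 13 of cohesin and condensin, 13 of cytokinesis or 14 of mitotic entry. Over all 106 the unadjusted limma p was under 0.05 for 14, beside 17.0% of all genes tested. Median differences of the 7 lists ran from -0.02 to 0.05.

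Against untreated cells 6 of the 106 rose and 0 fell after NELF dsRNA, 5.66% beside 7.09%. These were named after their values were seen. They were msd5 (0.41), the kinetochore genes Spc105R (0.40) and Nnf1a (0.33), dmt (0.43), listed with the cohesion genes, the centriole duplication gene ana2 (0.99) and mip40 (0.31), whose product is part of the Myb-MuvB complex. LacZ dsRNA minus untreated was 0.05 for msd5, 0.20 for Spc105R, 0.20 for Nnf1a, 0.36 for dmt, 0.56 for ana2 and 0.06 for mip40, none past the threshold. NELF dsRNA minus LacZ dsRNA was 0.20 for Spc105R, 0.13 for Nnf1a, 0.07 for dmt and 0.43 for ana2. Of the 6 genes msd5 passed in that comparison. At an unadjusted limma p under 0.05, NELF dsRNA against untreated cells gave 25 of the 106, beside 19.5% of all genes. LacZ dsRNA against untreated cells gave 0 limma calls among the 106, beside 0.0772% of all genes. At an unadjusted p under 0.05 it gave 19, beside 11.1% of all genes.

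**Figure D5:**
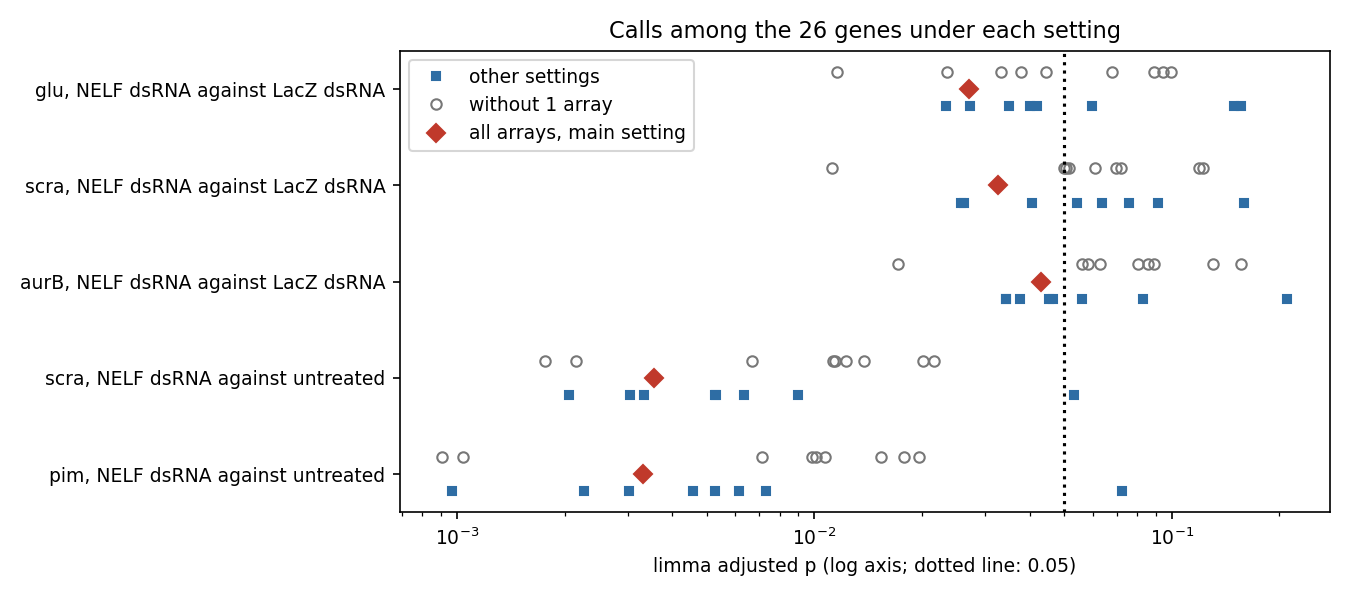
Limma adjusted p (horizontal log axis, dotted line at 0.05) of each call among the 26 genes, with all arrays (red diamond), without 1 array at a time (open circles) and under 8 other settings (blue squares). The calls of scra and pim against untreated cells lie left of the line except in the fit without a variance trend, while those of glu, scra and aurB against LacZ dsRNA fall on both sides.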

How the data were processed

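The authors deposited 1 log2 intensity value per probe set and array, from 9 arrays. Scanning with GeneChip Operating Software and import into Rosetta Resolver are stated per the labels' protocols and design text. How probes were summarized and normalized is not given in the sources used here, and the log2 scale was read from the values. Empty cells (21.2% of 161091) were kept as missing. The medians of the 9 arrays, taken where every array had a value (9266 probe sets), spanned 0.025, and no further normalization was done. Gene names came from the platform annotation, in which 13086 of 17899 probe sets had 1 gene, 389 several and 4424 none, and 12988 of the first matched a RefSeq gene identifier.

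Limma 3.58.1 in R 4.3.3 (lmFit, eBayes with a mean-variance trend) was fitted with 1 mean per group over all 9 arrays, for probe sets with 2 or more values in both groups of a comparison. The Benjamini-Hochberg threshold was 0.05 over all probe sets. All 26 genes are named, with values per array for those passing or singled out. The members and lists were chosen with earlier results of these data known, so no list is tested. The level range was taken after seeing the values. Replicate numbers are shared between groups. No same-numbered pair deviated from its group means together at a correlation over 0.1 (range -0.11 to 0.097). Other-numbered pairs ran from -0.15 to 0.19, so this check cannot exclude a pairing. Arrays were not paired in the main fit. No batch is given. Alternatives were the variance trend left out, quantile normalization, a floor on low values, complete probe sets, the 2 groups alone, the replicate block, means over probe sets, and arrays left out. The number of arrays limits the precision. No sequences or coordinates were used here.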

Additional observations from a re-analysis of the deposited data

How the results depend on the processing

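Each result was recomputed under 17 alternatives, of which 9 left out 1 array. No call changed direction. The 5 calls among the 26 genes held in 53 of 85 recomputations and missed the threshold in 32. In NELF dsRNA against LacZ dsRNA, the 3 called genes became 0 without the variance trend (4 at an unadjusted limma p under 0.05), 1 with only the 2 groups compared (glu), 1 with the replicate block (aurB) and 1 (aurB) on dropping the pair of arrays with most empty cells, array 1 of LacZ dsRNA and array 3 of NELF dsRNA. Leaving out 1 array gave 0 to 2, with 4 to 6 genes at an unadjusted limma p under 0.05, and the count was 0 without NELF dsRNA array 1 or 3 or LacZ dsRNA array 2. Against untreated cells the 2 called genes became 0 without the variance trend (adjusted p = 0.053 for scra and 0.072 for pim, 4 genes at an unadjusted limma p under 0.05), and were 2 in all other settings, the replicate block among them. LacZ dsRNA against untreated gave 0 in all settings, with 2 to 5 genes at an unadjusted limma p under 0.05. Its median difference of -0.01 became 0.048 without that pair and ran from -0.054 (without LacZ dsRNA array 3) to 0.048 (without LacZ dsRNA array 1) on leaving out 1. Without the trend, 180 genes in place of 474 passed against LacZ dsRNA and 279 in place of 640 against untreated cells, and the 7 genes of LacZ dsRNA against untreated ranged from 1 to 19 over the settings. The causes were not tested.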
